A study of Mus musculus with 22 samples.

Results

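The aryl hydrocarbon receptor gene Ahr was followed together with its partner Arnt, the feedback genes Ahrr and Tiparp, and the target genes Cyp1a1, Cyp1a2, Cyp1b1, Nqo1 and Aldh3a1 in sorted mouse lung epithelial cells (ECs). These 9 genes were chosen by name and matched by symbol and Ensembl identifier, out of 54373 genes listed in both count tables. Live single CD45-EpCAM+ cells had been sorted from enzyme-digested lungs of C57BL/6 wildtype (WT) mice and of mice labelled AhR-KO or CYP1B1-KO, which the study's methods name as deficient in the respective gene and backcrossed to C57BL/6. By the study's methods the sort also left out CD31+ cells. The naive group held 4 WT libraries, 3 labelled AhR-KO and 3 labelled CYP1B1-KO, and the HDM group, from mice sensitized to house dust mite, held 4 libraries of each genotype. AhR-KO and CYP1B1-KO stand throughout for the libraries that carry these labels. By the study's methods, mice of both sexes were used and were matched for age and sex. The sources used here give neither age nor sex of a library, but Y-linked reads, given below, differed between libraries of the HDM group. Whether a library held cells of more than 1 mouse is not given either. The p-values therefore measure the spread between the libraries. The 2 states were deposited as separate count tables, and a difference between states cannot be told apart from one between tables.

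AhR is a transcription factor of the bHLH-PAS family that waits in the cytosol in a complex with HSP90 chaperones until it binds a ligand, such as a dioxin, a plant indole or a tryptophan metabolite. It then enters the nucleus, pairs with ARNT and binds a short DNA element, the xenobiotic response element (XRE). The CYP1 monooxygenases that it induces break down many of its ligands, while the AhR repressor AHRR competes for ARNT and the ADP-ribosyltransferase TIPARP promotes the loss of AhR protein, so that the pathway limits itself at several points. In the lung, AhR is known as a sensor of inhaled pollutants and smoke.

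The XRE core, GCGTG on either strand, was searched in the promoter windows of RefSeq (GRCm38.p6), which run from 250 bases before to 50 bases after an annotated start. Windows were held for 7 of the 9 genes, all but Ahr and Aldh3a1. The core was found in 5 of these windows, 3 times in that of Ahrr, and in 32.4% of all 32851 windows. It was not found in the windows of Cyp1a2 (chr9:57683606-57683905) and Nqo1 (chr8:107403156-107403455). The 7 matches follow with 8 bases on each side, so that the core, in capitals, can be read in its context. Each is read 5′ to 3′ on the strand given.
Cyp1a1, chr9:57697551-57697571, plus strand: ataaggagGCGTGgccaacag
Cyp1b1, chr17:79715125-79715145, plus strand: ggggtgggGCGTGaggggcgg
Tiparp, chr3:65528269-65528289, minus strand: tcccgtgcGCGTGctccggac
Arnt, chr3:95434353-95434373, plus strand: agtttgggGCGTGtcttctgc
Ahrr, chr13:74292426-74292446, minus strand: gaaagggcGCGTGgcaggcag
Ahrr, chr13:74292401-74292421, minus strand: aaggatgtGCGTGcgccctct
Ahrr, chr13:74292346-74292366, minus strand: ggcggctcGCGTGctggggtg
A T 2 bases before the core, as in the longer element TNGCGTG, was found in 1 of the 7, the Ahrr match nearest the start. The RefSeq window of Cyp1a1 lies inside the span of the gene in the annotation used for positions and lengths (GENCODE M21, GRCm38), so that another annotated start was not searched.

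Total counts were 9654825 to 17878442 per library. The predicted gene Gm10800 took 9.54% to 29.2% of the counts of naive libraries and 0.00819% to 71.9% of those of HDM libraries, and 1180756 to 16447855 protein-coding counts remained outside such dominant genes. The HDM libraries labelled AhR-KO stood apart in a further respect. Their replicates 3 and 4 had 172 and 191 CPM (counts scaled to a common library size) on Y-linked genes, as high as the naive libraries (at least 66.5). The other 10 HDM libraries had at most 0.257. Replicates 3 and 4 thus held cells of males and differed in sex from the WT libraries after HDM. Genotype and sex are partly mixed in that comparison. Markers of ECs (Epcam, Cdh1, Krt8, Krt18 and Nkx2-1) were present in every group, at a summed 488.6 to 2261 CPM. The 16 hematopoietic markers summed to 233.8 to 461 CPM in the naive groups and, after HDM, to 1069 to 3316 in WT, 194.6 to 3231 in CYP1B1-KO and 188.2 to 810.7 in AhR-KO. Csf1r made up most of the naive sums (means of 226.5 to 251.4 CPM by group) and was lower after HDM (85.8 to 125.8), while the means of most other markers of the list were higher after HDM in each genotype, such as that of Ptprc, which encodes CD45 (4.02 to 18.6 CPM by group in naive and 75.6 to 411 in HDM libraries). The 6 alveolar type 1 markers summed to 14047 to 25529 CPM in naive libraries and, after HDM, to 598.9 to 4365 in WT, 417.5 to 3954 in CYP1B1-KO and 3140 to 18562 in AhR-KO. The 7 alveolar type 2 markers summed to 827.4 to 5403 CPM in naive and 4609 to 73188 in HDM libraries. The Y-linked replicates 3 and 4 of AhR-KO HDM had 13969.5 and 18562 CPM on alveolar type 1 and 219.1 and 188.2 on hematopoietic markers. Both were nearer the naive than the WT HDM sums. Their alveolar type 2 sums (7791 and 7723) lay above every naive library, and their EC sums (757.2 and 841.4) below. The 4 club cell markers summed to 353.4 to 4498 CPM in naive libraries and, after HDM, to 194.8 to 1824 in WT, 276.7 to 4995 in CYP1B1-KO and 1685 to 8060 in AhR-KO, and the 5 ciliated cell markers to 272.3 to 492.5 and, after HDM, to 56.7 to 108.1, 51.4 to 135.1 and 99.4 to 179.9. Tppp3 made up most of the ciliated sums and their fall (means of 298.3 and 127.2 CPM in AhR-KO), while the means of the other 4 ciliated markers were higher after HDM in AhR-KO, as that of Foxj1 (0.99 and 1.88). The 7 endothelial markers stayed at 8.73 to 38.4 CPM and the 8 mesenchymal ones at 21.8 to 224. No marker of these lists was at 0 in every library of a group. In such bulk samples, fewer cells of a type and less RNA per cell cannot be told apart.

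**Figure D1:**
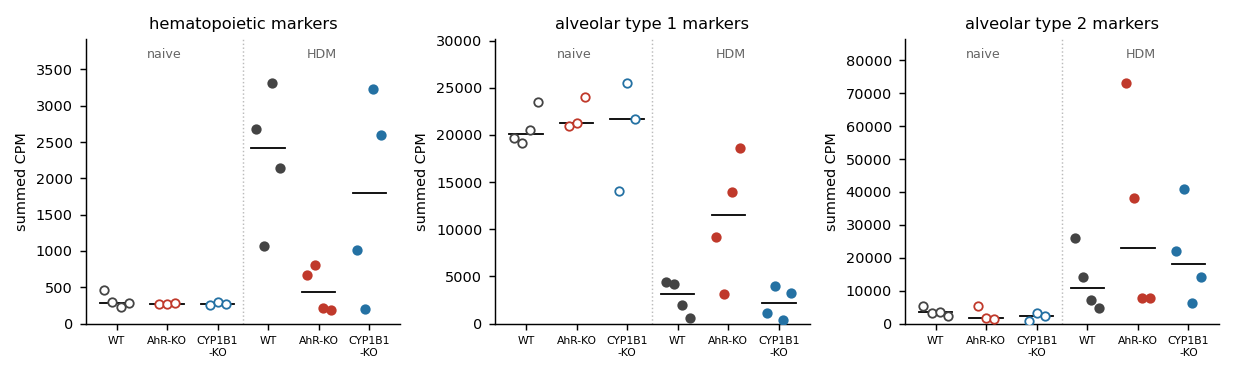
Summed CPM of the markers of hematopoietic cells (16 genes), alveolar type 1 cells (6) and alveolar type 2 cells (7) in each library, by genotype label (x axis) and state. Points are libraries, open for naive and filled for HDM, and bars are group medians. After HDM, WT libraries had 1069 to 3316 CPM on hematopoietic markers and those labelled AhR-KO 188.2 to 810.7, while alveolar type 1 markers reached 18562 CPM in AhR-KO and at most 4365 in WT. Csf1r carried most of the naive hematopoietic sums and was lower after HDM.

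Per length of exon and depth (RPKM, reads per kilobase of exon after scaling to CPM), the 9 genes spanned a wide range of levels. Tiparp was highest, with a median of 22.3 RPKM over the 22 libraries, and stood above Arnt (4.89) in 22 of 22 libraries. Arnt stood above Ahr (2.13) in 19 of 22. Ahr, Aldh3a1 (2.04) and Nqo1 (1.80) could not be ordered, since Ahr was above Aldh3a1 in 10 and Aldh3a1 above Nqo1 in 12 of the 22. Nqo1 was above Cyp1b1 (0.287) in 17 libraries and Cyp1b1 above Cyp1a2 (0.0981) in 21. Cyp1a2, Cyp1a1 (0.0884) and Ahrr (0.0592) again had no stable order, with Cyp1a2 above Cyp1a1 in 9 and Cyp1a1 above Ahrr in 12 libraries. Among protein-coding genes, the mean level per length of Tiparp was at the 95.9th percentile and that of Ahrr at the 8.06th.

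**Figure D2:**
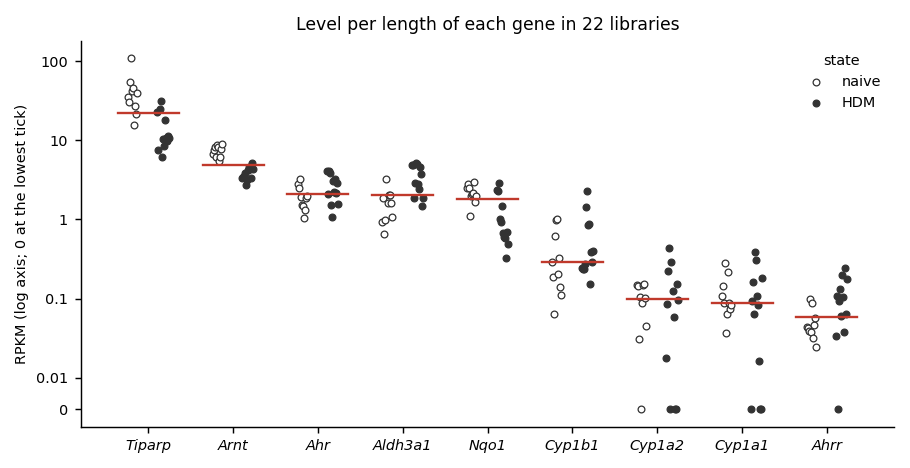
RPKM (log axis, libraries at 0 drawn at the lowest tick) of each gene in the 10 naive (open) and 12 HDM (filled) libraries, ordered by the median over all 22, drawn as a red bar. Tiparp lies at a median of 22.3 RPKM, and Cyp1a2, Cyp1a1 and Ahrr lie at 0.0981 and less.

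Differences were tested over all protein-coding genes with the quasi-likelihood test of edgeR and called at a Benjamini-Hochberg adjusted p of at most 0.05, and levels are given in CPM on library sizes that were scaled together over the 22 libraries. SE stands for the standard error of a log2 fold change. The filter on low counts was passed by 6 of the 9 genes in the naive table, without Ahrr, Cyp1a1 and Cyp1a2, and by 7 in the HDM table and in the fit of both tables, without Cyp1a1 and Cyp1a2.

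Ahr itself (ENSMUSG00000019256, chromosome 12, 35497974 to 35535038, minus strand) was not lower in the libraries labelled AhR-KO. In the naive state it was at 17.1, 15.4 and 20.1 CPM in those libraries, at 6.38, 8.2, 11.4 and 12.3 in WT, and at 12, 9.32 and 9.07 in those labelled CYP1B1-KO. All 3 AhR-KO values were above every other naive library, while WT and CYP1B1-KO overlapped. The log2 fold change of AhR-KO over WT was 0.85 (SE 0.21, 95% interval 0.44 to 1.27, adjusted p = 1.00 from edgeR), the 17th lowest p of 15547 genes. After HDM, Ahr was at 25.1, 12.8, 25.5 and 23.8 CPM in AhR-KO, at 20, 13.4, 17.9 and 9.61 in WT, and at 9.37, 6.62, 18.8 and 13.7 in CYP1B1-KO. Replicate 2 of AhR-KO lay below 3 of the 4 WT libraries, and the log2 fold change was 0.53 (SE 0.29, interval -0.04 to 1.10, adjusted p = 0.196 from edgeR). Without replicates 3 and 4, which carried Y-linked reads, it was 0.29 (adjusted p = 0.687 from edgeR). Which part of the gene the AhR-KO allele lacks is not given in the sources used here, and a count over the whole gene does not show whether the mRNA is intact. The preparation is not described as keeping strand, so reads of the antisense gene Gm48236, which overlaps 2.06% of the exons, cannot be told apart.

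Cyp1b1 (ENSMUSG00000024087, chromosome 17, 79701537 to 79715061, minus strand), the CYP1 enzyme of steroid and pollutant metabolism, was likewise not lower in the libraries labelled CYP1B1-KO, where it was highest. The naive values were 3.61, 5.77 and 5.89 CPM in CYP1B1-KO, 1.19, 1.91, 0.812 and 0.644 in WT, and 1.68, 1.09 and 0.369 in AhR-KO. The HDM values were 8.47, 13.5, 4.98 and 5.15 CPM in CYP1B1-KO, 0.896, 2.28, 1.67 and 2.31 in WT, and 1.43, 1.37, 1.36 and 1.59 in AhR-KO. In both states every CYP1B1-KO library was above every library of the other genotypes, with WT and AhR-KO overlapping. The log2 fold change of CYP1B1-KO over WT was 2.07 in naive ECs (SE 0.47, interval 1.14 to 3.00, adjusted p = 0.822 from edgeR) and 2.22 after HDM (SE 0.50, interval 1.25 to 3.20, adjusted p = 0.999 from edgeR). Its p ranked 5th of 15547 genes in the naive state and 2nd of 14161 after HDM. DESeq2 called the naive difference (adjusted p = 0.0381) and not the HDM difference (0.168). Without the 5 shallow HDM libraries (replicates 3 and 4 of AhR-KO, 1 and 2 of CYP1B1-KO and 2 of WT, with fewer than 3e+06 protein-coding counts outside dominant genes) the HDM value was 1.55. Counts behind these values were 3 to 114 per library. Which part of Cyp1b1 the allele lacks is not given in the sources used here either.

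**Figure D3:**
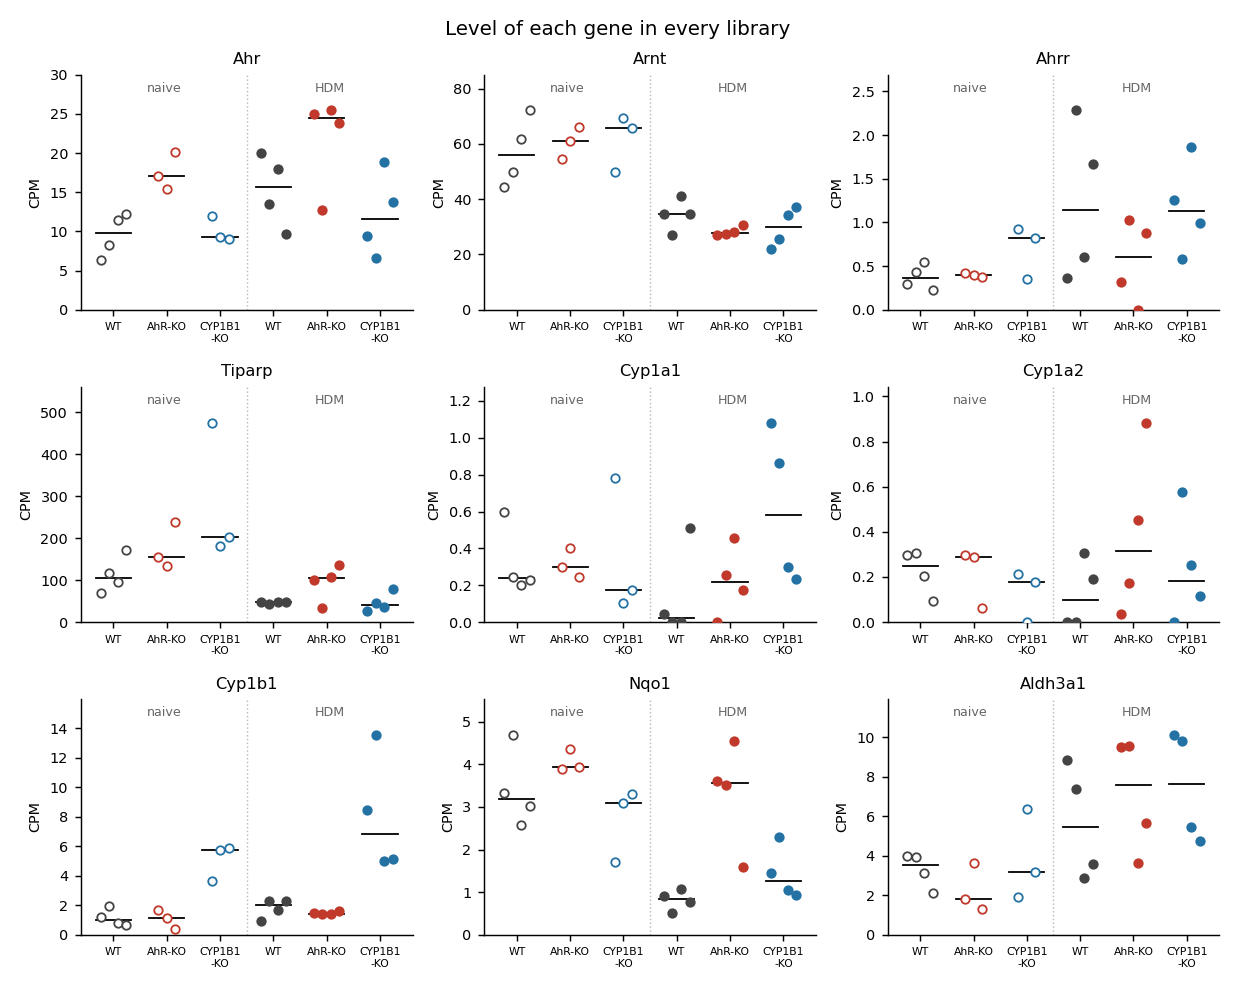
CPM of the 9 genes in each library, by genotype label (x axis) and state, with a separate CPM axis from 0 for each gene. Points are libraries, open for naive and filled for HDM, and bars are group medians. Ahr reached 25.5 CPM in libraries labelled AhR-KO, which overlapped WT after HDM. Cyp1b1 reached 13.5 CPM in those labelled CYP1B1-KO, all of which lay above WT. Nqo1 was at 0.507 to 1.06 CPM in WT after HDM.

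Between genotypes, Nqo1 in the HDM state was the 1 member that passed the threshold. In AhR-KO against WT after HDM, 1 of the 7 members tested was called, while 22.1% of all genes were, so that the share of members was not above that of all genes. The median log2 fold change of the 7 was 0.36 and that of all genes -0.0016. In the naive state, 0 of 6 members passed in AhR-KO against WT, where 0% of all genes were called by edgeR, and 263 genes, 1 of them a member, were below 0.05 before adjustment. CYP1B1-KO against WT gave 0 of 6 members in the naive state (0.0129% of all genes, 901 genes and 2 members under the unadjusted 0.05) and 0 of 7 after HDM (0% of all genes, 233 genes and 1 member under it). AhR-KO against CYP1B1-KO gave 0 of 6 in the naive state (0.00643% of all genes, 657 genes and 2 members under the unadjusted 0.05) and 0 of 7 after HDM (0.00706% of all genes, 4236 genes and 4 members under it). DESeq2 called 0 members in the naive AhR-KO and the HDM CYP1B1-KO comparison with WT, 1 member, Cyp1b1, in the naive CYP1B1-KO comparison with WT and in the naive comparison of the knockout labels, and 4 members in their HDM comparison.

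Nqo1 (ENSMUSG00000003849, chromosome 8, 107388225 to 107403206, minus strand) encodes a quinone reductase that is induced through AhR and through NRF2. After HDM it was at 3.61, 3.52, 4.55 and 1.59 CPM in AhR-KO, at 0.896, 0.507, 1.06 and 0.769 in WT, and at 1.44, 2.3, 1.06 and 0.936 in CYP1B1-KO. The AhR-KO libraries were all above the WT libraries, and CYP1B1-KO overlapped both. Nqo1 was 4.01-fold higher in AhR-KO than in WT (log2 fold change 2.00, SE 0.51, interval 1.00 to 3.01, adjusted p = 0.0272 from edgeR). The counts behind this were small, 101, 41, 10 and 9 in AhR-KO against 20, 2, 7 and 12 in WT. Leaving out single libraries kept the log2 fold change between 1.80 and 2.23, but the adjusted p exceeded 0.05 without replicate 1, 3 or 4 of either group (0.0533 to 0.0921 from edgeR). Without the Y-linked replicates 3 and 4 of AhR-KO it was 2.07 with an adjusted p of 0.202 from edgeR, a fit in which 0 genes passed in all. The 5 shallow libraries include both of these, and without all 5 the value was 2.10 with an adjusted p of 0.0326 from edgeR. The call was lost with the replicate block, as given in the last section. Summed hematopoietic markers were lower in each of these AhR-KO libraries than in any WT library after HDM. Alveolar type 1 markers were higher in replicates 1, 3 and 4 of AhR-KO (9130 to 18562 CPM) but not in replicate 2 (3140), since 2 WT libraries had 4232 and 4365. Club cell markers were at 1685 to 8060 CPM in AhR-KO (median 4963) and at 194.8 to 1824 in WT (median 672.5). The part of these cells in the Nqo1 difference was not tested.

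In naive ECs, Nqo1 was at 3.89, 4.36 and 3.93 CPM in AhR-KO, at 3.34, 4.69, 2.57 and 3.03 in WT, and at 1.7, 3.09 and 3.3 in CYP1B1-KO. AhR-KO and CYP1B1-KO each overlapped WT, and every AhR-KO library lay above every CYP1B1-KO library. Ordered by mean, the 6 groups ran from AhR-KO naive (4.06 ± 0.26 CPM, SD, n = 3) over WT naive (3.41 ± 0.91, n = 4), AhR-KO HDM (3.32 ± 1.24, n = 4), CYP1B1-KO naive (2.70 ± 0.87, n = 3) and CYP1B1-KO HDM (1.43 ± 0.62, n = 4) to WT HDM (0.81 ± 0.23, n = 4). Neighbours in this order overlapped in their libraries, and the step from WT naive to WT HDM did not. From naive to HDM, Nqo1 fell in WT by 2.03 on the log2 scale (SE 0.39, adjusted p = 0.000244 from edgeR). The change was -1.02 in CYP1B1-KO (SE 0.40, adjusted p = 0.0541 from edgeR) and -0.31 in AhR-KO (SE 0.38, interval -1.07 to 0.44, adjusted p = 0.61 from edgeR). The difference between the AhR-KO effects of the 2 states was 1.71 (SE 0.55, interval 0.64 to 2.78), with an adjusted p of 0.149 from edgeR and of 0.0323 from DESeq2.

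Tiparp (ENSMUSG00000034640, chromosome 3, 65528410 to 65555518, plus strand) varied most in absolute level. In naive ECs it was at 475, 181 and 203 CPM in CYP1B1-KO, at 68.5, 117, 94.6 and 173 in WT, and at 156, 134 and 239 in AhR-KO. Every CYP1B1-KO value was above WT, and AhR-KO overlapped both. The log2 fold change of CYP1B1-KO over WT was 1.31 (SE 0.36, interval 0.59 to 2.02, adjusted p = 0.822 from edgeR). Without CYP1B1-KO replicate 2 (475 CPM) it was 0.69 (adjusted p = 0.636 from edgeR), and that library also stood apart in club cell markers (353.4 CPM against 3721 and 4498) and alveolar type 1 markers (14047 against 21703 and 25529). After HDM the order was another, with 100, 32.6, 108 and 136 CPM in AhR-KO, 47, 42.6, 48.9 and 47.1 in WT, and 26.7, 45.2, 36.6 and 79.5 in CYP1B1-KO. Of the AhR-KO libraries, 3 lay above every WT library and replicate 2 below all of them. Alveolar type 1 markers were lowest in that library too, at 3140 CPM against 9130, 13969.5 and 18562 in replicates 1, 3 and 4, and their part in the Tiparp values was not tested. The log2 fold change of AhR-KO over WT was 1.01 (SE 0.38, interval 0.26 to 1.76, adjusted p = 0.0717 from edgeR), which passed with DESeq2 (adjusted p = 0.0311) and did not without the 2 libraries with Y-linked reads (0.45, adjusted p = 0.574 from edgeR). The pseudogene 4931440P22Rik overlaps 5.12% of the Tiparp exons on the other strand, and its reads cannot be told apart.

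Of the remaining targets, Aldh3a1 (ENSMUSG00000019102, chromosome 11, 61207537 to 61218421, plus strand), an aldehyde dehydrogenase, overlapped between genotypes in both states. In naive ECs it was at 3.99, 3.95, 3.11 and 2.11 CPM in WT, 1.79, 3.62 and 1.29 in AhR-KO, and 1.91, 6.33 and 3.18 in CYP1B1-KO. After HDM it was at 8.83, 7.35, 2.89 and 3.59 CPM in WT, 9.52, 9.52, 3.64 and 5.65 in AhR-KO, and 10.1, 9.79, 5.43 and 4.74 in CYP1B1-KO. Arnt (ENSMUSG00000015522, chromosome 3, 95434388 to 95497240, plus strand), the partner that AhR shares with the hypoxia-inducible factors, also overlapped between genotypes. Its log2 fold change over WT was 0.06 in naive AhR-KO (interval -0.27 to 0.40), 0.05 in naive CYP1B1-KO (-0.29 to 0.38), -0.29 in AhR-KO after HDM (-0.63 to 0.05) and -0.20 in CYP1B1-KO after HDM (-0.54 to 0.14). These intervals, which are somewhat too narrow, leave room for changes of 0.63 or more on the log2 scale.

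Cyp1a1 (ENSMUSG00000032315, chromosome 9, 57687928 to 57703824, plus strand), the most inducible AhR target in most tissues, was counted 0 to 11 times per library. In naive ECs the counts were 10, 4, 3 and 5 in WT, 5, 7 and 4 in AhR-KO, and 11, 2 and 3 in CYP1B1-KO. After HDM they were 1, 0, 0 and 8 in WT, 0, 3, 1 and 1 in AhR-KO, and 6, 3, 6 and 4 in CYP1B1-KO. The 19 counts of CYP1B1-KO stood against 9 of WT, 8 of which came from 1 library, and in the fit without the filter the log2 fold change was 1.86 (SE 1.24, adjusted p = 1.00 from edgeR). A count of 0 allows 3 counts, which correspond to 0.107 to 1.36 CPM after HDM, so that a level below that could not be resolved. Cyp1a2 (ENSMUSG00000032310, chromosome 9, 57676937 to 57683703, minus strand), best known from liver, was counted 0 to 5 times per library and 55 times in all 22. No direction between genotypes could be read from either gene at this depth.

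Ahrr (ENSMUSG00000021575, chromosome 13, 74211118 to 74292331, minus strand) was counted 0 to 37 times per library. In naive ECs it was at 0.23 to 0.541 CPM in WT, 0.369 to 0.419 in AhR-KO and 0.355 to 0.921 in CYP1B1-KO. After HDM it was at 0.358, 2.28, 0.608 and 1.67 CPM in WT, 0.322, 1.03, 0 and 0.883 in AhR-KO, and 1.26, 0.576, 1.86 and 0.995 in CYP1B1-KO. Genotypes overlapped in both states.

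**Figure D4:**
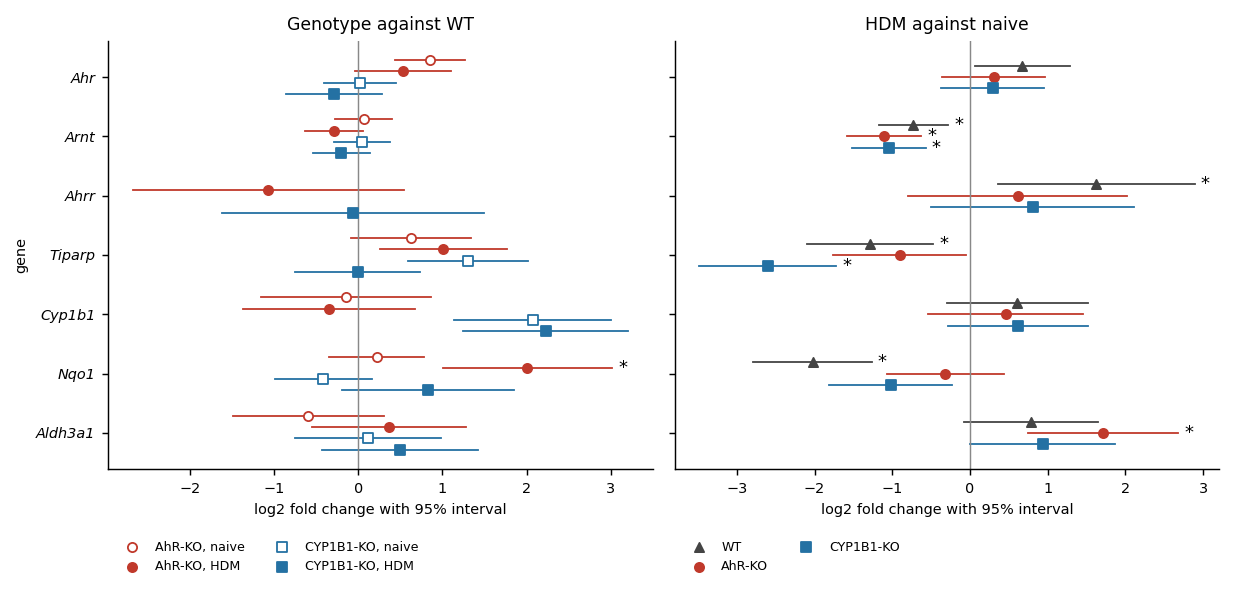
Log2 fold changes with 95% intervals of the 7 genes that passed the filter, for each genotype label against WT (left) and for HDM against naive within each genotype label (right). A star marks an adjusted p of at most 0.05 from edgeR, and Ahrr has no naive value. Left, Nqo1 in AhR-KO after HDM is the 1 value with a star (2.00), and Cyp1b1 in CYP1B1-KO lies at 2.07 and 2.22, and right, Arnt carries a star in all 3 genotypes.

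From naive to HDM, 4 of 7 members passed in WT (Arnt, Tiparp and Nqo1 lower, Ahrr higher), where 38.4% of all genes did. In AhR-KO 2 of 7 passed (Arnt lower, Aldh3a1 higher), against 20.6% of all genes, and in CYP1B1-KO 2 of 7 (Arnt and Tiparp lower), against 33.4%. Whether members moved more often than other genes was not tested. The median log2 fold change of all genes in WT was itself -0.11 under this scaling and -0.04 under RLE scaling, and small shifts are relative to it. In CYP1B1-KO the median of all genes was -0.02, and 0.11 under RLE scaling. State and count table cannot be told apart in any of these values. In WT and CYP1B1-KO, state and Y-linked reads cannot be told apart either, since all naive libraries carried such reads and no HDM library of these genotypes exceeded 0.256 CPM. In AhR-KO, 2 of the 4 HDM libraries carried them.

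Arnt fell in all 3 genotypes. It was at 44.3, 50, 61.8 and 72.1 CPM in naive WT and at 34.6, 27.1, 41 and 34.8 after HDM, at 54.4, 61.1 and 66 and then 26.8, 27.3, 28.2 and 30.5 in AhR-KO, and at 49.8, 69.4 and 65.7 and then 21.8, 25.6, 34.1 and 37.3 in CYP1B1-KO. No HDM library reached a naive one. The log2 fold changes were -0.73 in WT (SE 0.23, adjusted p = 0.0136 from edgeR), -1.10 in AhR-KO (0.24, 0.00372) and -1.05 in CYP1B1-KO (0.24, 0.00164). The summed EC markers and the summed alveolar type 1 markers were lower in every HDM than in every naive library of the same genotype, and the summed hematopoietic markers were higher in every WT library. Single markers did not all go this way, since the mean of the sort marker Epcam was 107.4 CPM in naive and 196.1 in HDM libraries of WT, 105.6 and 125.9 in AhR-KO and 190.3 and 205.3 in CYP1B1-KO, and that of the alveolar type 1 marker Hopx was 69.1 and 105.1 in AhR-KO. The part of these cells in the fall of Arnt was not tested.

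Tiparp fell by 2.60 on the log2 scale in CYP1B1-KO (SE 0.45, adjusted p = 0.000116 from edgeR) and by 1.29 in WT (0.41, 0.0163), without overlap of the libraries in either, and changed by -0.91 in AhR-KO (0.44, adjusted p = 0.144 from edgeR), where the libraries overlapped. In WT the call rested on naive replicate 4 (173 CPM), without which the change was -1.01 and the adjusted p 0.0731 from edgeR. Whether these changes differed was tested as the difference of the genotype effects between states, which was -1.32 for CYP1B1-KO (SE 0.60, adjusted p = 1.00 from edgeR).

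Aldh3a1 rose in AhR-KO by a log2 fold change of 1.71 (SE 0.49, adjusted p = 0.017 from edgeR), with values of 0.79 in WT (0.44, adjusted p = 0.164) and 0.94 in CYP1B1-KO (0.48, adjusted p = 0.145). Without AhR-KO naive replicate 1 or 4 or HDM replicate 1, the adjusted p in AhR-KO was 0.0543 to 0.103 from edgeR. Ahrr was higher after HDM in WT, with a log2 fold change of 1.63 (0.65, adjusted p = 0.0498 from edgeR) on 25 naive and 47 HDM counts. This call was lost without any 1 of 6 of the 8 WT libraries (adjusted p 0.0569 to 0.15 from edgeR) and without the shallow HDM libraries (0.165). Ahr changed by 0.67 in WT (0.31, adjusted p = 0.0935 from edgeR), 0.30 in AhR-KO and 0.29 in CYP1B1-KO, and passed in WT under RLE scaling (0.73, adjusted p = 0.039 from edgeR). Cyp1b1 changed by 0.61 in WT, 0.46 in AhR-KO and 0.62 in CYP1B1-KO, with adjusted p of 0.315 to 0.571 from edgeR. Its direction in CYP1B1-KO was not fixed, since without the shallow libraries, which include the HDM libraries at 8.47 and 13.5 CPM, the value was -0.16 (adjusted p = 0.847 from edgeR).

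In the test of whether genotype effects differed between the states, 0 of 7 members passed for AhR-KO (0% of all genes by edgeR, with 3050 genes and 1 member, Nqo1, under an unadjusted p of 0.05) and 0 of 7 for CYP1B1-KO (0% of all genes, with 382 genes and 1 member, Tiparp, under it). DESeq2 called 1 member, Nqo1, in the former and 0 in the latter.

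Besides these members, 53 genes of the pathway were followed in 5 lists. In AhR-KO against WT after HDM, 39 of them could be tested, 0 were higher and 7 were lower. Of all 14161 genes tested, 22.1% were called, 1305 higher and 1820 lower. Of the 9 tryptophan-kynurenine enzymes tested, which make or remove AhR ligands, 4 were lower. These were Got2 (-1.50, SE 0.33, adjusted p = 0.0261 from edgeR) and Kyat3 (-1.25, 0.0461), aminotransferases that form kynurenic acid, and Haao (-2.68, 0.0281) and Kynu (-2.48, 0.0363) of the branch to NAD. The list had a median of -1.25 and all genes of -0.0016. Kynu was at 12.2 to 64.7 CPM in WT and at 1.77 to 13.6 in AhR-KO, and Haao at 9.38 to 29.6 and 0.177 to 6.12. Among 12 coregulators, Ncoa3 (-1.97, 0.0261), a coactivator, and Relb (-2.67, 0.0268), an NF-kB subunit that can bind AhR, were lower, and among 5 tested bHLH-PAS proteins Hif1a (-1.08, 0.0387), a rival for ARNT. No gene of the cytosolic complex (6 tested, lowest p for Hsp90ab1 at -0.83 and Ptges3 at -0.81) or of the other AhR-responsive genes (7 tested, lowest p for Nedd9 at 0.71 and Cyp2s1 at -1.56) passed in edgeR, with 3 of each under an unadjusted p of 0.05. Epas1, second in its list, was at 0.67. Hematopoietic markers were lower in the same AhR-KO libraries, as given above, and their part was not tested. Without the 2 AhR-KO libraries with Y-linked reads 0 of these genes passed. Without the 5 shallow HDM libraries, which include those 2, 6 were lower, among them Kmo in place of Kyat3 and without Hif1a. Leaving out any of several single libraries left 0 genes passing in this comparison, as listed in the last section. With the replicate block nearly all calls of this comparison were lost.

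In the other genotype comparisons 0 genes of the 5 lists passed in edgeR. Unadjusted p-values under 0.05 were found for 0 of 41 in AhR-KO against WT in naive ECs, 2 of 41 in CYP1B1-KO against WT in naive ECs (Npas3 at -1.09 and Tdo2 at -0.95) and 1 of 39 after HDM (Ncoa1 at 0.59), and for 3 of 41 and 14 of 39 in AhR-KO against CYP1B1-KO. In the last, Got2 (-1.13), Relb (-2.26), Ncoa3 (-1.51) and Kyat3 (-1.35) had the lowest p of their lists, at adjusted p of 0.064 to 0.0663 from edgeR, and Cyp2s1 (-2.03), a further AhR-inducible P450, was at 0.0686. Without the 5 shallow HDM libraries, 6 list genes were lower in AhR-KO than in CYP1B1-KO after HDM, namely Ncoa3, Relb, Kmo, Kynu, Got2 and Haao, and Ncoa3 and Got2 passed in the difference of the AhR-KO effect between states. The chaperone gene Hsp90aa1 was at 0.57 (0.0821 from edgeR) and its cochaperone Dnajc7 at -0.67, while Arnt2, a second partner, was at 0.41. Among the 2 lowest p-values of their lists, but above an unadjusted 0.05, were in naive ECs those of Dnajc7 (0.09), Hsp90aa1 (0.11) and Kyat1 (0.26) for AhR-KO against WT, Hsp90aa1 (-0.32), Smarca4 (0.17) and Stc2 (0.81) for CYP1B1-KO against WT, and Hif3a (-1.20) and Nfe2l2 (0.39), which encodes NRF2, for AhR-KO against CYP1B1-KO.

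From naive to HDM, the kynurenine enzymes Kynu, Haao and Kmo rose in each genotype. Kmo, which hydroxylates kynurenine, rose by a log2 fold change of 6.51 in WT, 7.08 in CYP1B1-KO and 4.22 in AhR-KO, Haao by 5.96, 5.58 and 3.93, and Kynu by 5.06, 5.82 and 2.66, with adjusted p between 1.26e-05 and 0.022 from edgeR. Afmid and Kyat3 rose in WT (2.53 and 1.07) and CYP1B1-KO (1.82 and 1.05), Tdo2 fell in WT and AhR-KO (-1.91 and -1.82), and Got2 fell in AhR-KO (-1.13). Kmo was at 1.06 to 3.04 CPM in naive WT and at 63.4 to 289 after HDM, and reached 2.02 to 287 after HDM in CYP1B1-KO and 4.94 to 60.5 in AhR-KO. Summed hematopoietic markers were higher after HDM in the 4 WT libraries (1069 to 3316 against 233.8 to 461 CPM). They were also higher in 3 of 4 CYP1B1-KO libraries (1011 to 3231 against 249.97 to 290.2), with the other at 194.6. In AhR-KO, 2 of 4 libraries were higher (663.4 and 810.7 against 262.7 to 282.4). The others, at 188.2 and 219.1, were replicates 4 and 3, which carried Y-linked reads. These sums hold Csf1r, which went the other way. Ptprc alone was higher in every HDM than in every naive library of each genotype, at 209 to 637 against 2.02 to 52.5 CPM in WT, 26.2 to 668 against 2.18 to 6.16 in CYP1B1-KO and 14.8 to 161 against 3.33 to 7.66 in AhR-KO. The part of these cells was not tested. Among the AhR-responsive genes, Scin, which severs actin, rose in all 3 (3.27 in WT, 2.13 in AhR-KO, 3.54 in CYP1B1-KO), and so did Slc7a5, which carries tryptophan and kynurenine into cells (3.34, 1.86 and 2.02), while Nedd9 (-1.95, -1.24 and -1.72) and Selenbp1 (-2.20, -1.88 and -2.38) fell. Xdh rose in WT (1.69) and CYP1B1-KO (2.13). The list thus moved in both directions. Of the coregulators, Ep300 and Nrip1 rose in all 3 genotypes, Relb and Ncoa3 in WT, and Ncoa1 in CYP1B1-KO, and Klf6 fell in WT and CYP1B1-KO. Epas1 rose in all 3, Npas3 fell in WT, and Src fell in WT and CYP1B1-KO. Several of these calls depended on the libraries used. Without the shallow HDM libraries, Epas1 and Ncoa1 were no longer called in CYP1B1-KO while Relb and Ncoa3 were, and Ncoa1, Klf6, Npas3 and Xdh were called in AhR-KO. Without the 2 libraries with Y-linked reads, Got2 and Selenbp1 were no longer called in AhR-KO, and Npas3 and Xdh were. Whether these genes responded differently between genotypes was covered by the difference of the genotype effects, in which 0 list genes passed in edgeR, with 7 under an unadjusted p of 0.05 for AhR-KO and 0 for CYP1B1-KO. In all, 19 of 45 tested list genes passed in WT, 13 higher and 6 lower, 12 in AhR-KO (8 and 4) and 16 in CYP1B1-KO (12 and 4), beside the 38.4%, 20.6% and 33.4% of all genes.

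**Figure D5:**
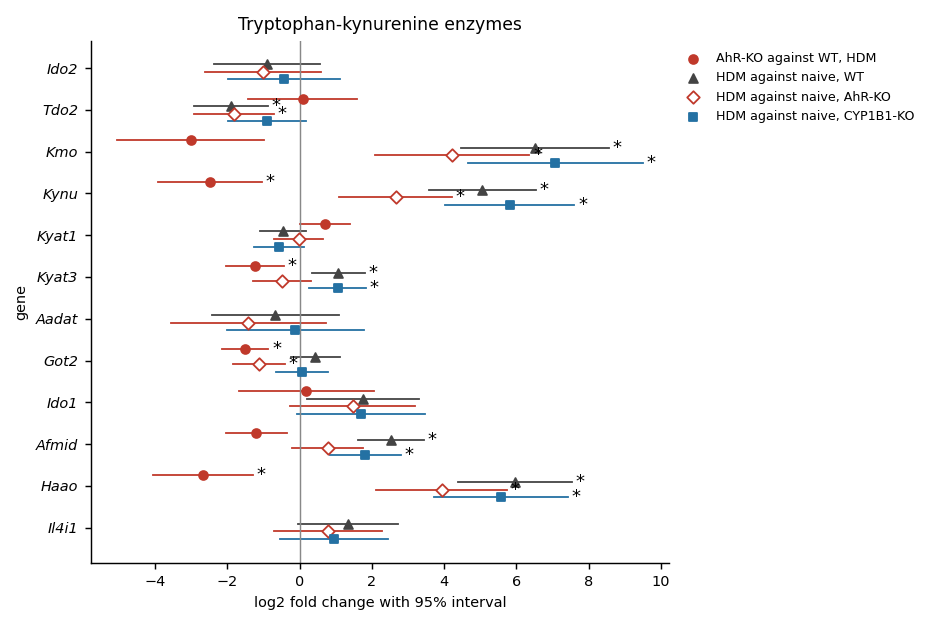
Log2 fold changes with 95% intervals of the tryptophan-kynurenine enzymes that passed the filter, in AhR-KO against WT after HDM and in HDM against naive within each genotype label. A star marks an adjusted p of at most 0.05 from edgeR. Kmo, Haao and Kynu lie right of 0 with a star from naive to HDM in every genotype, between 2.66 and 7.08, and Got2, Haao, Kynu and Kyat3 lie left of 0 with a star in AhR-KO against WT.

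Genes with patterns most like 4 of the members were sought over log2 CPM values centred within each table, over 22 libraries and 16639 genes, and are given as a description. Nearest to Ahr were Tspan13 (Pearson r = 0.83) and Rab10 (0.80), both on chromosome 12 as is Ahr, and Gpd2 (0.79). Nearest to Tiparp were Resf1 (0.93), Dstyk (0.91) and Ndfip1 (0.90). With the values centred within each of the 6 groups, those for Ahr were 0.84, 0.80 and 0.80 and those for Tiparp 0.92, 0.90 and 0.90. Nearest to Cyp1b1 were Pkdcc (0.72) and Fndc1 (0.65), both on its chromosome 17, and Esyt3 (0.69), and with the values centred within each of the 6 groups these fell to 0.19, 0.52 and 0.29. For Cyp1a1, whose counts were at most 11, the nearest were Fzd10 (0.86), Kcnj3 (0.85) and Scube1 (0.85), on counts too sparse to read. All points share the depth and composition of their libraries.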

How the data were processed

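RNA of sorted lung ECs had been turned into cDNA by template switching and tagmented. The authors trimmed reads with bbduk, aligned them with GSNAP to mm10 and counted them per gene with featureCounts (2.0.0), and deposited 1 table of raw read counts for each state. Tools and builds are taken in part from the submitters' processing notes. The counts were not normalized, and 0 sample columns were left unused. Total counts of 9654825 to 17878442 per library set the precision, and a count floor of 3 covers counting error only.

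Of 54373 genes, 54147 were matched to GENCODE M21 (GRCm38), and 21793 protein-coding genes were kept. Genes passing filterByExpr (minimum count 10, minimum total 15) were tested by quasi-likelihood in edgeR (4.0.16, limma 3.58.1, R 4.3.3) after TMM normalization. The naive table, the HDM table and both together were fitted apart, in 11 comparisons in all, with Benjamini-Hochberg adjustment over all genes tested (15547, 14161 and 16639) and a threshold of 0.05. All groups of a fit shared 1 estimate of the spread. CPM and RPKM were computed on TMM library sizes, and log2 values used a prior count of 1. The steps were tested on simulated counts with the same spread for every gene and no outlying library, which is simpler than the HDM libraries. Alternatives were RLE scaling, no filter, all genes, leaving out dominant predicted genes (over 1% of a library), DESeq2 (1.42.0), the likelihood ratio test, a replicate block, and leaving out single libraries or the 2 HDM libraries labelled AhR-KO with Y-linked reads. Leaving out the 5 HDM libraries with fewer than 3e+06 protein-coding counts outside dominant genes was chosen after seeing the data.

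The 9 members and the gene lists were chosen with earlier results of these data known. All members were named. Genes of the 5 lists were named where they passed in at least 1 comparison or had 1 of the 2 lowest p-values of their list in a comparison, and for likeness the 3 genes of highest correlation with Ahr, Tiparp, Cyp1a1 and Cyp1b1.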

Additional observations from a re-analysis of the deposited data

Results flagged for a closer look

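In 68 groups of 4 libraries, 5 held 1 library far from the other 3 by Dixon's test, which chance alone flags in about 1 of 20 groups. Ahr was at 12.8 CPM in AhR-KO HDM replicate 2 and at 23.8 to 25.5 in the other libraries of that group. Cyp1a1 was at 0.596 CPM in WT naive replicate 1 (others 0.203 to 0.247), on 10 counts, and at 0.512 CPM in WT HDM replicate 4 (others 0 to 0.0448), on 8 counts. The summed club cell markers were at 1.2e+03 CPM in WT naive replicate 4, against 2.54e+03 to 2.74e+03 in the others. The summed mesenchymal markers were at 57.8 CPM in WT HDM replicate 2, against 21.8 to 26.7.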

How the results depend on the processing

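Of 74 tests of a member in a comparison, 25 had an unadjusted p under 0.05 in edgeR, and none of these 25 changed direction in any alternative. Over 1254 alternative fits, 1140 kept direction and side of the threshold, 22 lost the call, 28 gained one and 64 changed direction, the last in 18 tests with a log2 fold change of at most 0.62.

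Members called in AhR-KO against WT after HDM numbered 1 (3125 genes in all), and 2 with DESeq2 (4555 genes) or the likelihood ratio test (4120), 0 without the 2 libraries with Y-linked reads (0 genes), and 0 to 2 without single libraries (0 to 4137 genes). The number of genes was 0 without AhR-KO HDM replicate 1, 3 or 4 or WT HDM replicate 3 or 4, 885 without WT HDM replicate 1, 1802 without the filter and 1948 without the shallow libraries. DESeq2 called 1 member in CYP1B1-KO against WT (5 genes, against 2) and 1 in AhR-KO against CYP1B1-KO in naive ECs (14 genes, against 1). In AhR-KO against CYP1B1-KO after HDM, members called numbered 4 with DESeq2 (2865 genes, against 1), 1 with the likelihood ratio test (2458 genes) and 0 to 3 without single libraries (0 to 3097 genes). From naive to HDM they numbered 1 to 4 in WT without single libraries, 1 without naive replicate 4, and 1 to 2 in AhR-KO, 1 without naive replicate 1 or 4 or HDM replicate 1 (2156, 1532 and 2083 genes, against 3435). The difference of the AhR-KO effect gave 1 member with DESeq2 (1221 genes) and 1 without the shallow libraries (530 genes). For AhR-KO against WT in naive ECs, DESeq2 and the likelihood ratio test called 12 and 11 genes, against 0. Testing all genes moved the share of higher calls in CYP1B1-KO from naive to HDM from 46.5% to 58.3%.

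Correlations did not settle whether replicate numbers pair the samples. Above 0.1 were 4 of 8 same-numbered naive pairs and 4 of 12 HDM pairs (-0.0222 to 0.246 and -0.48 to 0.681). Their medians were 0.0748 and -0.173, against -0.0689 and 0.112 in other pairs. The highest HDM correlations, 0.681, 0.625 and 0.568, were of same-numbered pairs. With the replicate block, 0 members were called in AhR-KO against WT after HDM (1 gene in all), 4 in WT from naive to HDM (4369 genes), 2 in AhR-KO (2066) and 3 in CYP1B1-KO (3702). Values that changed sign included Arnt in naive CYP1B1-KO (-0.0035 with the block, -0.033 to 0.17 without single libraries) and AhR-KO (-0.016 to 0.14 without single libraries), and from naive to HDM Ahrr in AhR-KO (-0.25 with the block), Nqo1 in AhR-KO (-0.38 to 0.0035 without single libraries) and Cyp1b1 in CYP1B1-KO (-0.16 without the shallow libraries). The cause was not tested. Depth limits Cyp1a1, Cyp1a2 and Ahrr most.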
